A study of Bos taurus with 6 samples.

Results

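Aminoacyl-tRNA synthetases attach each amino acid to its own tRNA, the step that supplies charged tRNA to the ribosome. Mammalian cells keep separate sets of these enzymes for the cytosol and for the mitochondrion, and all of them are encoded in the nucleus. In the names used here the letter gives the amino acid, and the suffix 2 marks the mitochondrial enzyme (*YARS* charges tyrosine in the cytosol and *YARS2* in the mitochondrion). A few genes break this scheme: *EPRS* joins the glutamate and the proline enzyme in a single protein, *FARSA* and *FARSB* encode the 2 subunits of the cytosolic phenylalanine enzyme, *GARS* and *KARS* also supply the mitochondrion, and mitochondrial glutaminyl-tRNA is made by amidation, without a glutamine enzyme of its own. Several cytosolic genes of the family are textbook targets of ATF4, the transcription factor of the amino acid response, which the kinase GCN2 switches on when uncharged tRNA builds up.

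The members were the rows of the count table whose symbol followed the synthetase naming pattern, which gave 38 of 15693 genes. These were 21 cytosolic and 17 mitochondrial genes, the latter being those with the suffix 2 directly after ARS. *TARSL2*, which also ends in 2, was placed with the cytosolic genes. The pattern reads names and no measured value. The symbols of 36 of the 38 genes matched a RefSeq symbol or synonym, and *VARS* and *EPRS* did not.

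RNA-seq was performed on bovine mammary epithelial cells (bMECs), a cultured line from mammary tissue of a Chinese Holstein dairy cow in lactation. The 3 *ACADSB*-/- libraries came from cells in which short/branched-chain acyl-CoA dehydrogenase, an enzyme of isoleucine and fatty acid breakdown, had been disrupted with the PX458 plasmid, which carries Cas9 and a green fluorescent protein. The 3 WT libraries came from bMECs that the paper calls wild type and, for the RNA extraction, negative control cells. The basal medium held insulin, hydrocortisone and serum. Fluorescent *ACADSB*-/- cells were sorted and grown from single cells, at a higher share of serum than in the basal medium and with antibiotics. The paper describes a monoclonal knockout line from 1 sorted cell, and the submitters' design text mentions 3 knockout lines. These sources do not settle whether the 3 libraries come from 1 clone or from several. An effect of the edit cannot be told apart from a property of the clone, or from effects of transfection, sorting and this growth. RNA is described as pooled, and separate cultures are not mentioned for the libraries of a group. The p-values therefore measure only how these libraries spread, and that spread may be technical.

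Each library held 30550275 to 34983965 counts, and a count is the number of reads assigned to a gene. Levels of a gene are given as CPM (counts divided by the library total, which TMM had scaled), levels of different genes as the deposited FPKM, which also divides by gene length, and changes as the log2 of *ACADSB*-/- over WT from the quasi-likelihood test of edgeR on the counts. A gene was called higher or lower in *ACADSB*-/- bMECs when its p, adjusted by the Benjamini-Hochberg method over the 13720 genes tested, was under 0.05. *ACADSB* itself was low in both groups, where 9, 7 and 15 reads were counted in the *ACADSB*-/- libraries and 38, 34 and 20 in those of WT (log2 change -1.60, SE 0.459, edgeR adjusted p = 0.00357). Of the epithelial markers, *KRT8*, *KRT18* and *KRT5* were abundant in both groups (means of 2353 to 3879 CPM), the defining immune marker *PTPRC* and the milk protein genes were not among the counted genes, and the luminal markers *ELF5*, *ESR1* and *GATA3* were not counted either. Other epithelial markers differed between the groups in both directions. Of the 6 luminal markers counted, of 9 listed, *EPCAM* (183 against 121 CPM), *CDH1* and *KRT7* were called higher in *ACADSB*-/- bMECs, *KRT8* and *KRT18* were called lower, and the median log2 change was 0.25. Of the 5 basal markers counted, of 6 listed, *KRT5* and *ACTA2* (100.4 against 60.5 CPM) were called higher, and *KRT14* (68.9 against 130.4 CPM) and *KRT17* (12.6 against 99.6 CPM) were called lower. The summed level of the luminal markers, nearly all *KRT8* and *KRT18*, was 5018 to 5530 CPM in *ACADSB*-/- and 6441 to 6788 CPM in WT libraries, and that of the basal markers, nearly all *KRT5*, was 3951 to 4251 and 3656 to 3871 CPM. The fibroblast markers, 6 of 9 counted and nearly all *DCN*, summed to 1289 to 1325 and 1106 to 1171 CPM, and the endothelial and immune markers to under 6 CPM in every library. Of the 5 fibroblast markers tested, *DCN* was called higher (log2 change 0.21) and the scarce *COL3A1* lower (-1.17). *COL1A1* (-0.70), *VIM* (-0.30) and *PDGFRA* (0.26) did not pass. These cell type markers moved with the groups, and their part in the results that follow was not tested. In bulk RNA, fewer cells of a type and less RNA per cell cannot be told apart.

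The cytosolic and the mitochondrial enzymes had different balances of calls. Of the 21 cytosolic genes, 12 (57.1%) were lower and 1 (4.76%) was higher in *ACADSB*-/- bMECs, where 28.6% of all tested genes were lower, 29.7% were higher and 58.2% were called in either direction. Of the 17 mitochondrial genes, 7 (41.2%) were higher and 2 (11.8%) were lower. The median log2 change was -0.18 over the cytosolic and 0.17 over the mitochondrial genes, against 0.0049 over all genes tested. The changes were moderate. None of the 38 genes changed 2-fold in edgeR, at an adjusted or an unadjusted p under 0.05, or in DESeq2, whereas 10.2% of all tested genes passed the adjusted p with a 2-fold change (5.3% higher and 4.92% lower). The largest change among the members was a log2 of 0.55, and 28.1% of all tested genes had a larger one. In 25 of the 38 genes the groups of libraries did not overlap, 9 with *ACADSB*-/- above and 16 below, where 63.6% of all tested genes did not overlap, 31.9% above and 31.7% below.

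**Figure D1:**
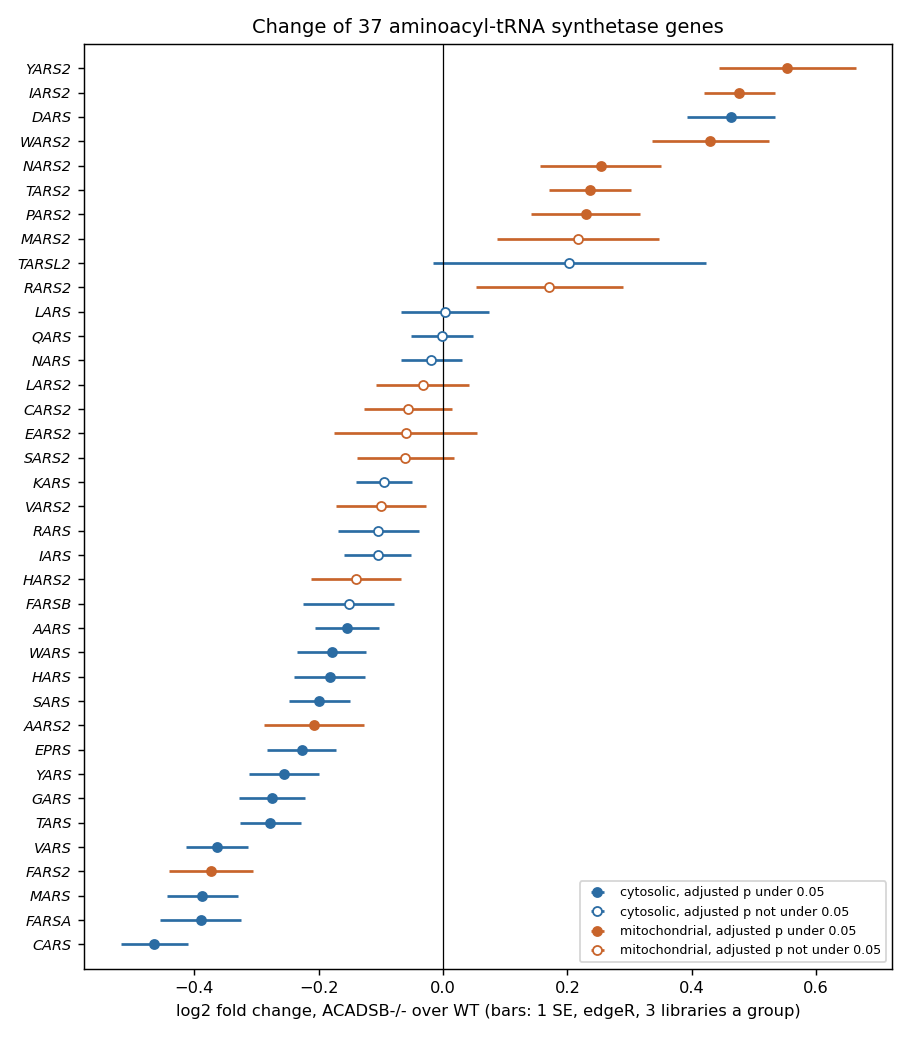
Log2 fold change (horizontal axis, *ACADSB*-/- over WT) of 37 of the 38 synthetase genes, ordered from the largest rise to the largest fall, with bars of 1 SE from edgeR (n = 3 libraries a group). Filled points have an adjusted p under 0.05: most filled cytosolic points (blue) lie left of 0, with *DARS* alone on the right, and 6 of the 8 filled mitochondrial points (orange) lie right of 0.

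*CARS*, the cysteine enzyme of the cytosol (chromosome 29, 49538735 to 49591058 as the files give it, with no genome build stated), had the largest fall. Its level was 116, 119 and 106 CPM in *ACADSB*-/- and 158, 155 and 156 CPM in WT libraries. The groups did not overlap, and the mean was 27.5% lower in *ACADSB*-/- bMECs (log2 change -0.46, SE 0.0538, edgeR adjusted p = 1.4e-08). *FARSA*, the catalytic subunit of the phenylalanine enzyme (chromosome 7, 13804232 to 13814329), read 43.4, 43.2 and 44.8 CPM against 57.1, 55.6 and 59.3 CPM. All *ACADSB*-/- libraries were again below all WT libraries (log2 change -0.39, SE 0.0649, edgeR adjusted p = 6.8e-06). *FARSB*, which encodes the other subunit of the same enzyme, had a log2 change of -0.15 with overlapping groups and an edgeR adjusted p of 0.078. *MARS*, which charges both initiator and elongator methionine tRNA (chromosome 5, 56465281 to 56484050), was at 91.3, 87.9 and 84.6 CPM against 121, 107 and 117 CPM, a log2 change of -0.39 (SE 0.0574, edgeR adjusted p = 1.1e-06). *VARS*, the valine enzyme (chromosome 23, 27435422 to 27444276), was at 176, 187 and 177 CPM against 239, 219 and 236 CPM, a log2 change of -0.36 (SE 0.0504, edgeR adjusted p = 3.6e-07). The 3 libraries of a group lay close together in both genes, with no overlap between the groups.

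The other cytosolic genes that passed the test downwards were *TARS*, *GARS*, *YARS*, *EPRS*, *SARS*, *HARS*, *WARS* and *AARS*, with log2 changes between -0.28 and -0.15. Of these, *AARS* did not pass without *ACADSB*-/- replicate 3 or without WT replicate 3 (edgeR adjusted p = 0.0788 and 0.0602), and *WARS* did not pass without WT replicate 3 (edgeR adjusted p = 0.0505). *DARS*, which charges aspartate (chromosome 2, 61942515 to 62007998), was the only cytosolic gene called higher. Its level was 133, 130 and 138 CPM in *ACADSB*-/- and 84.1, 109 and 97.8 CPM in WT libraries, so the groups were apart although the WT libraries spread widely (log2 change 0.46, SE 0.0714, edgeR adjusted p = 1.7e-05). The 8 cytosolic genes not past the test were *FARSB*, *IARS*, *KARS*, *LARS*, *NARS*, *QARS*, *RARS* and *TARSL2*. *KARS*, the most abundant member of the family, was at 454, 452 and 436 CPM against 477, 473 and 482 CPM, which did not overlap but missed the threshold (log2 change -0.095, edgeR adjusted p = 0.0741). *TARSL2*, a threonine enzyme related to *TARS*, was the least abundant cytosolic gene, with 57 to 98 counts per library, and a difference was not detectable at this depth (log2 change 0.20, edgeR adjusted p = 0.443).

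Vertebrate cytosol holds a multi-synthetase complex, in which 8 of the counted genes take part (*DARS*, *EPRS*, *IARS*, *KARS*, *LARS*, *MARS*, *QARS* and *RARS*). Among these, 1 gene was called higher (*DARS*), 2 were called lower (*EPRS* and *MARS*) and 5 did not pass, with a median log2 change of -0.10. Of the 13 cytosolic genes outside the complex, 10 were lower and 0 were higher, with a median of -0.20. The lower genes made up 25.0% of the complex and 76.9% of the genes outside it, where 28.6% of all tested genes were lower, and the higher genes 12.5% and 0%, where 29.7% of all tested genes were higher. The difference between these sets was not tested. The genes of the 3 scaffold proteins of the complex also split: *EEF1E1* (log2 change -0.46, edgeR adjusted p = 4.3e-05) and *AIMP2* (-0.28, 0.00078) were lower, and *AIMP1* was higher (0.24, 0.0323) with overlapping groups. By the structural class of the catalytic domain, 5 of 9 cytosolic class I and 6 of 11 class II genes were lower, and *EPRS*, which holds both kinds, was lower too.

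**Figure D2:**
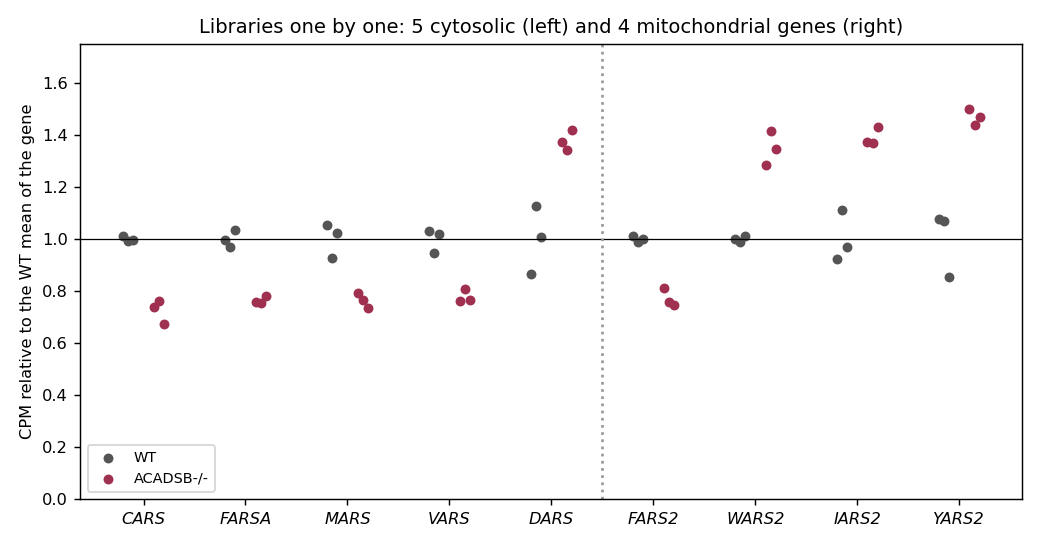
Level of 9 synthetase genes in each library, as CPM divided by the mean of the WT libraries of that gene (linear axis from 0), for 5 cytosolic and 4 mitochondrial genes with large changes past the test. The 3 *ACADSB*-/- points of each gene lie all above or all below its 3 WT points: below for *CARS*, *FARSA*, *MARS*, *VARS* and *FARS2*, above for *DARS*, *WARS2*, *IARS2* and *YARS2*.

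*YARS2*, the mitochondrial tyrosine enzyme (chromosome 5, 77716280 to 77742943), had the largest change of the family. Its level was 16.7, 16.0 and 16.3 CPM in *ACADSB*-/- and 12.01, 11.9 and 9.52 CPM in WT libraries. The *ACADSB*-/- libraries were tightly grouped and all above the WT libraries, of which WT replicate 3 was the lowest (log2 change 0.55, SE 0.11, edgeR adjusted p = 7.8e-05). Without WT replicate 3 the largest change of the family was that of *CARS* (-0.47). With limma on log2(FPKM + 1) it was that of *IARS2* (0.50). *YARS2* overlaps *DNM1L* on the opposite strand over 13951 bases, *DNM1L* had a log2 change of 0.27, and no source used here gives whether the counting used strand, so reads of the pair may be mixed. *IARS2*, the mitochondrial isoleucine enzyme and the most abundant of the mitochondrial genes (chromosome 16, 24382034 to 24428569), read 222, 222 and 232 CPM against 149, 180 and 157 CPM. Every *ACADSB*-/- library exceeded every WT library by a wide margin (log2 change 0.48, SE 0.0571, edgeR adjusted p = 5.5e-08). *WARS2*, the tryptophan enzyme (chromosome 3, 24311761 to 24406252), was at 18.9, 20.9 and 19.8 CPM against 14.8, 14.6 and 14.9 CPM (log2 change 0.43, SE 0.0947, edgeR adjusted p = 0.00028). Its groups did not overlap. Recessive variants of *YARS2* are known in people from a myopathy with anaemia.

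*FARS2*, the single-chain mitochondrial phenylalanine enzyme (chromosome 23, 49117139 to 49423292), went down. It was at 41.6, 38.8 and 38.2 CPM in *ACADSB*-/- and 51.8, 50.7 and 51.2 CPM in WT libraries, with no overlap (log2 change -0.37, SE 0.0676, edgeR adjusted p = 2.3e-05). The other mitochondrial gene called lower, *AARS2*, had a log2 change of -0.21 and did not pass without *ACADSB*-/- replicate 1, *ACADSB*-/- replicate 2 or WT replicate 3 (edgeR adjusted p = 0.147, 0.0596 and 0.0517). Without the first or the second of these, the count of lower mitochondrial genes is 1. *AARS2* overlaps *MRPL14* on the same strand over 3357 bases, and *MRPL14* had a log2 change of -0.38. On the opposite strand it overlaps *TMEM63B* over 18767 bases, and *TMEM63B* had a mean count of 5548 and a log2 change of -0.099. Also called higher were *NARS2*, *TARS2* and *PARS2*, with log2 changes of 0.25, 0.24 and 0.23. *TARS2* passed in every leave-one-out fit. *NARS2* and *PARS2* did not pass without *ACADSB*-/- replicate 1, *ACADSB*-/- replicate 3, WT replicate 1 or WT replicate 3 (edgeR adjusted p of 0.0542, 0.0864, 0.106 and 0.0642 for *NARS2*, and of 0.164, 0.0604, 0.0624 and 0.0665 for *PARS2*). In each of these fits the count of higher mitochondrial genes was 5 in place of 7. The 8 mitochondrial genes not past the test (*CARS2*, *EARS2*, *HARS2*, *LARS2*, *MARS2*, *RARS2*, *SARS2* and *VARS2*) had log2 changes from -0.14 to 0.22.

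For 17 amino acids the table held a gene for each compartment, which allows the 2 enzymes to be compared within a library, where the scaling of the library cancels. The mitochondrial gene had the more positive log2 change in 14 of the 17 pairs, with a median difference of 0.27. The ratio of the mitochondrial to the cytosolic gene was above WT in all 3 *ACADSB*-/- libraries in 9 pairs, overlapped in 8 and was below in 0. Of all single genes tested, 31.9% were above and 31.7% below without overlap, and no such share was computed for pairs of other genes. An exact two-sided permutation test over the 6 libraries gives p = 0.1 for each of the 9 pairs above WT. This is the smallest value that 3 against 3 libraries allow, so no pair could pass 0.05. The cytosolic gene was called lower and the mitochondrial gene higher for 4 amino acids (tyrosine, tryptophan, threonine and proline), and no pair had the reverse calls. *EPRS* stands in the proline and the glutamate pair, so these share a gene. The counts of pairs rest on the same genes and changes as the calls by compartment above, and are no separate evidence.

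The widest differences were those of tyrosine (0.81 on the log2 scale), tryptophan (0.61) and methionine (0.60). *YARS* was at 77.7, 77.7 and 78.9 CPM in *ACADSB*-/- and 96.3, 88.4 and 94.9 CPM in WT libraries, below WT while *YARS2* was above (log2 change -0.26, SE 0.0562, edgeR adjusted p = 0.00028). In FPKM, *YARS2* stood at 13.6, 13.1 and 13.2% of *YARS* in *ACADSB*-/- and at 7.92, 8.54 and 6.37% in WT libraries. The share was thus higher in each *ACADSB*-/- library, with the lowest value again in WT replicate 3. *WARS* was at 133, 129 and 125 CPM against 152, 133 and 153 CPM, so WT replicate 2 came close to the *ACADSB*-/- libraries (log2 change -0.18, SE 0.0561, edgeR adjusted p = 0.0072). *WARS2* stood at 22.5, 25.6 and 25.1% of *WARS* in FPKM against 15.3, 17.3 and 15.4%. *MARS2* was at 8.22, 8.64 and 8.96 CPM against 7.56, 7.16 and 7.48 CPM, which did not overlap but did not pass the test (log2 change 0.22, SE 0.13, edgeR adjusted p = 0.154). As a share of *MARS* in FPKM it was 11.3, 12.3 and 13.3% against 7.84, 8.44 and 7.997%, so the difference in this pair came mainly from *MARS*, which is called lower. In the isoleucine pair the mitochondrial gene exceeded the cytosolic one in every library: *IARS2* stood at 295, 292 and 285% of *IARS* in *ACADSB*-/- and at 177, 213 and 193% in WT libraries.

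At the other end, *FARSA* and *FARS2* were both called lower, with a difference of 0.016, and the alanine genes *AARS* and *AARS2* were both called lower, with a difference of -0.053. The ratios of these 2 pairs overlapped between the groups.

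**Figure D3:**
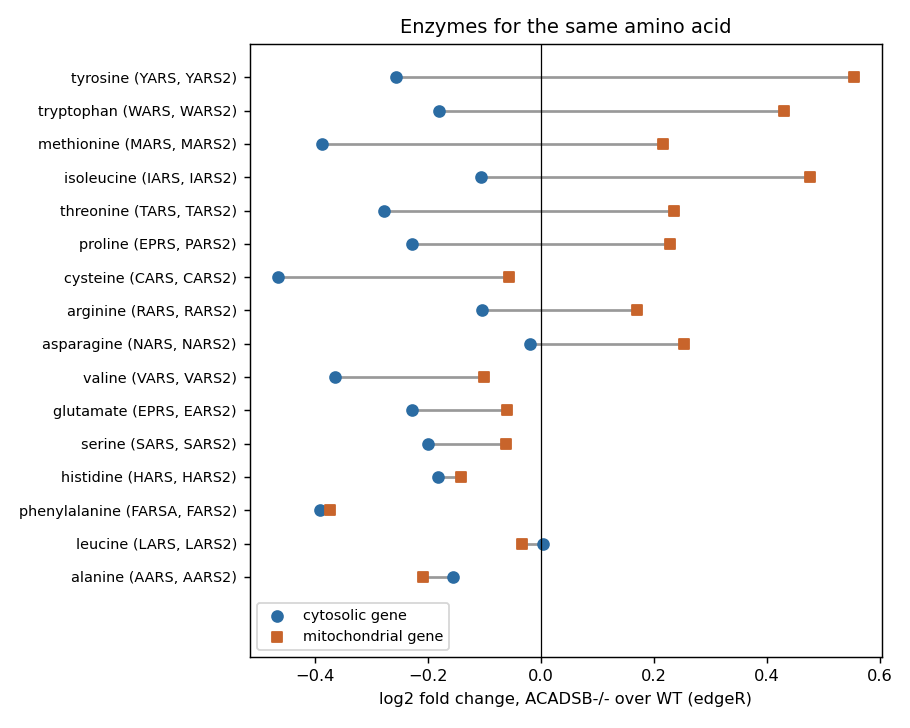
Log2 fold change of the cytosolic (circle) and the mitochondrial gene (square) for 16 of the 17 amino acids, ordered by their difference, with a line joining the 2 genes of a pair. The square lies right of the circle in 14 pairs, farthest in tyrosine (0.81), and the points nearly meet in phenylalanine (0.016).

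Cytosolic genes were the more abundant. Their median FPKM was 52.7 in WT and 43.6 in *ACADSB*-/- bMECs, from *TARSL2* (0.932 and 1.10) to *KARS* (217 and 208), and that of the mitochondrial genes was 9.38 and 9.39, from *EARS2* (2.28 and 2.24) to *IARS2* (47.1 and 67.1). The summed FPKM of the cytosolic genes was 1127, 1137 and 1127 in *ACADSB*-/- and 1225, 1234 and 1228 in WT libraries, and its mean changed by -7.997% with no overlap. The summed FPKM of the mitochondrial genes was 256, 254 and 260 against 234, 235 and 226, which is 10.8% higher with no overlap. As a share of the cytosolic sum, the mitochondrial sum was 22.7 ± 0.401% in *ACADSB*-/- and 18.8 ± 0.343% in WT bMECs (SD, n = 3). These sums over chosen genes were given no test. *IARS2* carried most of the mitochondrial rise: without it (a choice made after seeing the data) the mitochondrial sum was 190, 188 and 190 against 190, 182 and 181 FPKM, which overlapped and differed by 2.70%. The share of the cytosolic sum without *IARS2* was 16.8, 16.5 and 16.9% against 15.5, 14.7 and 14.8%, which did not overlap. Leaving out *GARS* and *KARS*, which serve both compartments, gave a cytosolic sum 8.15% lower.

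**Figure D4:**
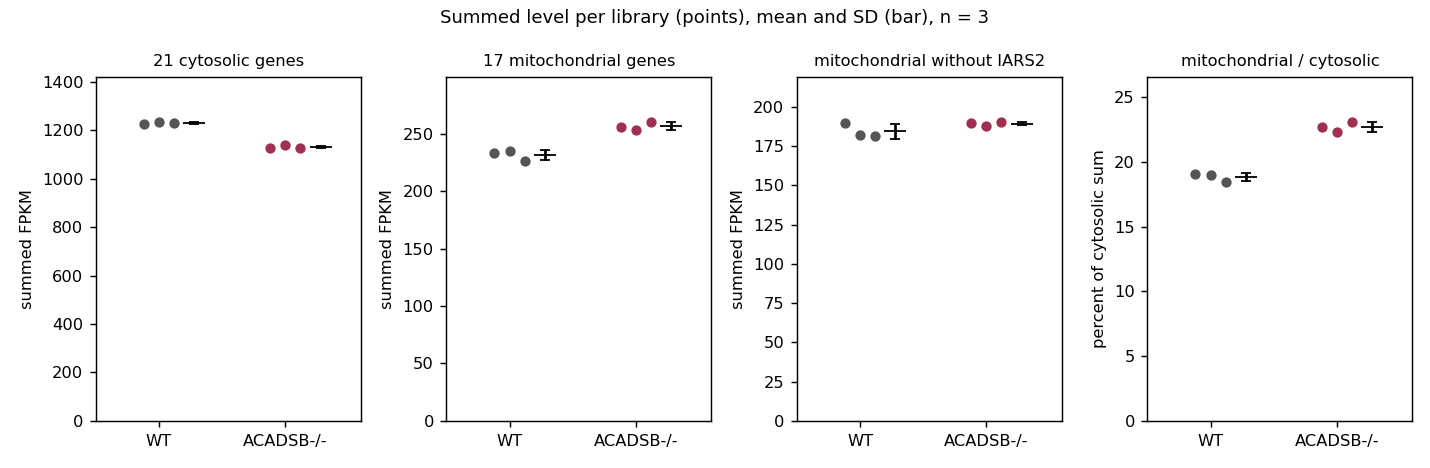
Summed FPKM of the 21 cytosolic genes, of the 17 mitochondrial genes, of the mitochondrial genes without *IARS2*, and the mitochondrial sum as percent of the cytosolic sum, for each library (points) with the mean and SD (n = 3), on linear axes from 0. The *ACADSB*-/- libraries lie below WT in the cytosolic sum (1131 against 1229), above in the mitochondrial sum (257 against 232) and in the share (22.7 against 18.8%), and the mitochondrial sum overlaps WT once *IARS2* is left out.

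In the files' coordinates, *HARS* and *HARS2* start back to back on chromosome 7 with 161 bases between them. Their log2 changes were -0.18 (edgeR adjusted p = 0.0074) and -0.14 (0.0981), a difference of 0.042. *EPRS* and *IARS2* also face away from each other, on chromosome 16 with 49377 bases and 2 genes between them, and had opposite calls: *EPRS* was at 163, 156 and 162 CPM against 179, 207 and 177 CPM (log2 change -0.23, edgeR adjusted p = 0.00086), below WT where *IARS2* was above. The 448 tested genes of chromosome 16 had a median log2 change of 0.034. Over the chromosomes that hold members, the medians ran from -0.145 (chromosome 25, *EARS2*) to 0.284 (chromosome 12, *CARS2*). The median was 0.162 on chromosome 3 (*PARS2*, *SARS*, *TARS2* and *WARS2*) and -0.114 on chromosome 18 (*AARS*, *KARS* and *SARS2*). Whether the chromosome had a part in the changes of the members was not tested. *MARS* shares 54 bases with *DDIT3* on the opposite strand, and *DDIT3* was called higher (log2 change 0.34).

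The genes around charged tRNA were read from short lists, and their counts stand beside 29.7% higher and 28.6% lower among all tested genes. Of 6 relatives of the synthetases and proofreading or recycling enzymes, 3 were lower, 0 were higher and 3 did not pass, with a median log2 change of -0.31. These were *PTRH2*, a mitochondrial peptidyl-tRNA hydrolase (-0.74, edgeR adjusted p = 2.2e-08), *DTD1*, which removes D-amino acids from tRNA (-0.51, 3.6e-06), and *AARSD1*, an alanyl-tRNA editing protein (-0.48, 2.4e-07). In the mitochondrial amidation and formylation list, *QRSL1*, the catalytic subunit of the glutaminyl-tRNA amidotransferase, was higher (0.59, edgeR adjusted p = 2.6e-06), its partner *GATB* was higher by a narrow margin (0.17, 0.0429), *MTFMT*, which formylates the initiator methionyl-tRNA, was lower (-0.34, 0.0069), and *GATC* did not pass. With DESeq2, with the size factors of DESeq2 in edgeR or with the replicate number as a block, 1 gene of this list was called higher in place of 2. Of 9 mitochondrial translation factors, 3 were higher and 2 were lower: the initiation factors *MTIF2* (0.43, edgeR adjusted p = 0.0043) and *MTIF3* (0.25, 0.0334) and the release factor *MTRF1L* (0.29, 0.0179) were higher. The elongation factor *TUFM*, which carries charged tRNA to the mitochondrial ribosome and is named here after its value was seen, was lower (-0.25, edgeR adjusted p = 0.00011). Of 5 tested cytosolic elongation factors, *EEF1A1*, the abundant carrier of charged tRNA, was higher (0.22, edgeR adjusted p = 0.00014), and 3 were lower, among them the exchange factor subunits *EEF1D* (-0.32, 3.5e-06) and *EEF1B2* (-0.19, 0.0006).

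Of 14 tRNA maturation and export genes, 3 were higher and 3 were lower (21.4% each, where 29.7% and 28.6% of all tested genes were), with 8 not past the test. *HSD17B10* had the largest change. It is both a subunit of mitochondrial RNase P and an enzyme of the isoleucine breakdown pathway, further down than *ACADSB*. It was at 33.4, 30.7 and 29.1 CPM in *ACADSB*-/- and 65.7, 60.4 and 61.4 CPM in WT libraries, with all *ACADSB*-/- libraries near 30 and far below WT (log2 change -1.01, SE 0.0709, edgeR adjusted p = 3.3e-13). *TSEN15*, of the tRNA splicing endonuclease, was higher (0.38, edgeR adjusted p = 0.0068), and *POP1*, of RNase P, was lower (-0.33, 0.00091). With DESeq2, 1 gene of the list was called higher in place of 3.

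*ATF4* was at 420, 418 and 403 CPM in *ACADSB*-/- and 589, 585 and 583 CPM in WT libraries. The libraries of each group were within a narrow band, and the groups were clearly apart (log2 change -0.50, SE 0.0453, edgeR adjusted p = 9.0e-11). Of the other genes of the GCN2 list, *PPP1R15B*, a subunit of the phosphatase that acts on eIF2 alpha, was higher (0.62, edgeR adjusted p = 2.2e-10), *EIF2S1*, which encodes eIF2 alpha, was lower (-0.32, 0.0024), and 3 did not pass, among them *EIF2AK4*, the gene of GCN2 itself (0.019, 0.83). Of 18 tested genes of the ATF4 amino acid response, 8 were lower (44.4%, where 28.6% of all tested genes were), 4 were higher (22.2%, where 29.7% of all tested genes were) and 6 did not pass, with a median log2 change of -0.17. The largest changes were those of *CHAC1*, a glutathione-degrading enzyme (-1.12, edgeR adjusted p = 4.1e-07), *NUPR1*, a stress-induced chromatin protein (1.07, 1.1e-06), and *DDIT4*, an inhibitor of mTORC1 (0.83, 5.2e-11). Named after their values were seen, the asparagine synthetase *ASNS* (-0.56), the serine synthesis gene *PSAT1* (-0.54) and the amino acid transporter chain *SLC3A2* (-0.68) were lower as well. *DDIT3* (0.34) and *ATF3* (0.13) were called higher, and with *NUPR1* and *DDIT4* they make up the 4 higher genes. *PHGDH* (0.10) and *SESN2* (0.039) were among the 6 that did not pass. These values are RNA levels, and the ATF4 protein was not measured. Whether ATF4 had a part in the changes of the cytosolic synthetase genes was not tested.

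**Figure D5:**
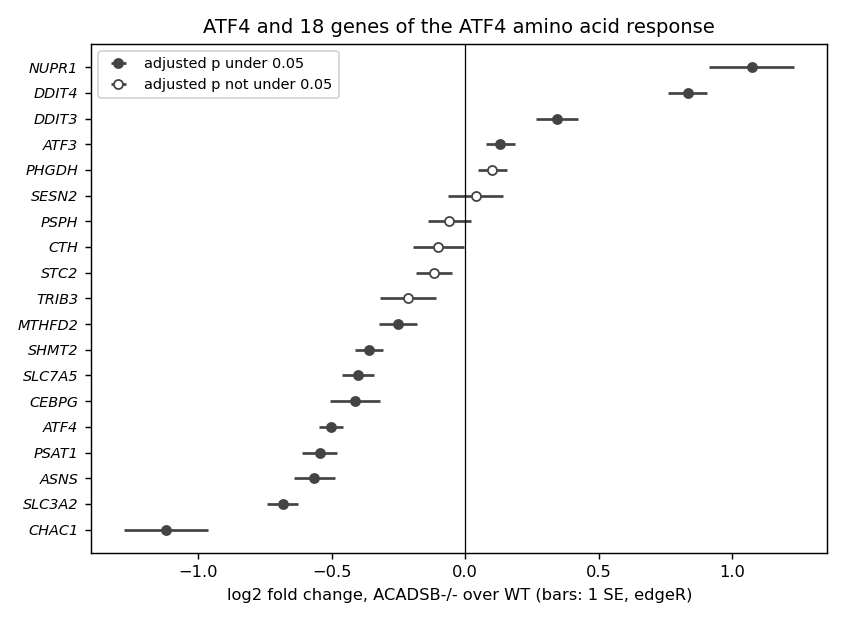
Log2 fold change (*ACADSB*-/- over WT, bars of 1 SE from edgeR, n = 3 libraries a group) of *ATF4* and 18 genes of its amino acid response. Filled points have an adjusted p under 0.05: 8 genes and *ATF4* (-0.50) lie left of 0 and 4 genes lie right of it, the extremes being *CHAC1* (-1.12) and *NUPR1* (1.07).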

How the data were processed

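The study sequenced RNA of 3 *ACADSB*-/- and 3 WT bMEC samples. The deposited counts are whole reads per gene, which the authors made without normalization, and the deposited FPKM values are scaled by gene length and mapped reads. No source used here gives the aligner, build or use of strand; Bismark 0.12.5 stands in the submitters' processing notes, its role unstated. The authors' fold, log2 and p-value columns hold their own comparison and were not used, nor were 3 columns of other samples. The methods name EB-Seq, which was not run.

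Counts were tested in edgeR 4.0.16 (R 4.3.3; TMM, filterByExpr with a minimum count of 10, robust quasi-likelihood fit, Benjamini-Hochberg). All 38 members were tested. Libraries of a group differed beyond counting noise (chi-square per degree of freedom 3.86 to 9.23), so none was a copy. On simulated counts for this comparison (12853 genes), the test recovered 60% of 50 genes with a 1.25-fold and 90% of 50 with a 1.5-fold change. The simulation changed a far smaller share of genes than the 58.2% called in the data. It also gave every gene the same spread between libraries (a dispersion of 0.0044), so its rates may not hold for the data. Alternatives were DESeq2 1.42.0, its size factors, other filters, limma 3.58.1 on log2(FPKM + 1) or log2(FPKM + 0.1), a 2-fold threshold, the replicate number as a block and leaving out each library.

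Members and lists were chosen with earlier results of these data known. Values per library are given for *ACADSB*, the 5 members of each class with the largest change past the test, and both genes of the 3 amino acids with the widest difference; *ATF4*, *HSD17B10*, *KARS* and *EPRS* were added after their values were seen. Up to 3 genes past the test are named per list. Named beyond this rule, with their values known, are *TUFM* and, in the ATF4 response, *ASNS*, *PSAT1*, *SLC3A2*, *DDIT3* and *ATF3*. The cell type markers did not follow the rule. Sequences were not used here. A member and a listed gene that these rules would name are not reported here, and counts and sums include them.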

Additional observations from a re-analysis of the deposited data

How the results depend on the processing

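Of the 22 members called, 22 kept their direction and 16 their call in all 14 settings. Among the members not past the test, *LARS*, *LARS2*, *QARS*, *NARS* and *EARS2*, with changes near 0, took either sign. *AARS*, *AARS2*, *NARS2*, *PARS2*, *EPRS* and *WARS* lost the call in at least 1 setting (highest edgeR or limma adjusted p of 0.101, 0.147, 0.106, 0.164, 0.0831 and 0.098), and *FARSB*, *HARS2*, *IARS* and *KARS* gained one. With the 2-fold threshold, 0 of the members were higher and 0 lower, with 0 and 0 among the cytosolic and 0 and 0 among the mitochondrial genes. The count of lower mitochondrial genes was 1 with limma on log2(FPKM + 1), with or without a filter, and on log2(FPKM + 0.1). It was 1 to 2 when leaving out each library. The count of higher mitochondrial genes was 6 with limma on log2(FPKM + 0.1) and on log2(FPKM + 1) with no filter. It was 5 to 7 when leaving out each library, where fewer samples are fitted. In the fits with 5, 3709 to 3802 of the 13923 to 13973 genes tested were higher. With summed CPM in place of FPKM the cytosolic sum changed by -10.8% and the mitochondrial share by 24.7%. In FPKM again, without *IARS2*, chosen after seeing the data, the mitochondrial sum changed by 2.70% and the share by 11.6%. The FPKM values lack the TMM scaling, and with limma on log2(FPKM + 1) the median log2 change of all genes was 0.034. Replicate numbers did not pair the libraries (correlations of same-numbered deviations -0.040, -0.026 and -0.024), and with the replicate block 8 members were higher and 14 lower, as without it, and *ACADSB* had a log2 change of -1.59. On log2(FPKM + 1) with no filter, a scale that understates low genes, that of *ACADSB* was -0.37. No scaling moved the median of all genes by over 0.1. In the interferon gamma list, the lower count was 1 in place of 2 among genes with a mean count of at least 50. Leaving out libraries was not run for the gene lists around charged tRNA. The depth leaves *TARSL2* (SE 0.219) and *MARS2* (SE 0.13) the least certain members.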

Other observations

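*WARS*, a textbook gene of the interferon gamma response, was set beside 6 tested genes of that response. Of these, 1 was higher (16.7%, where 29.7% of all tested genes were) and 2 were lower (33.3%, where 28.6% of all tested genes were). *PSMB8*, an immunoproteasome subunit (log2 change -0.35, edgeR adjusted p = 0.00015), and *IRF1*, a transcription factor (-1.38, 0.0023), were lower. A further 3 genes did not pass the test. *IRF1* was close to the lower limit of the counts, with 37, 14 and 15 counts in *ACADSB*-/- and 52, 36 and 76 counts in WT libraries, and the median log2 change of the 6 genes was 0.0015.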
